A study of Mus musculus with 12 samples.

Results

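The 9 genes described here are the ligands, receptors, cofactor and inhibitors of the Nodal signalling pathway: Nodal, Gdf3, Tdgf1, Acvr1b, Acvr2b, Foxh1, Lefty1, Lefty2 and Smad7. They were taken by symbol from a table of 24495 genes and chosen by their place in one pathway and by the measured level of Lefty2, which was lower in the knockdown line at Day 0. All 9 were among the 15532 genes with enough counts to be tested. The difference between the lines at Day 0 had a part in choosing them, so it is given below as a description, with no test.

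The study asked what loss of cathepsin L, a lysosomal cysteine protease encoded by Ctsl, does to mouse embryonic stem cells (mESCs) as they differentiate. RNA was sequenced from 2 lines of CCE-Nanog-GFP mESCs, which carry a GFP reporter for the pluripotency factor Nanog and were sorted for GFP before use. One line carried a lentiviral pLKO.1 short hairpin RNA against Ctsl (shCTSL, labelled KD) and the other a scrambled hairpin (shSC, labelled scr), both after puromycin selection. Each line was sampled undifferentiated in LIF on gelatin (Day 0), and again once LIF had been replaced by all-trans retinoic acid and the cells had formed embryoid bodies under rotation for 2 days (Day 2) or 4 days (Day 4). Every one of these 6 groups had 2 libraries, labelled as biological replicates. The sequenced knockdown is 1 hairpin line, so an effect of the hairpin or of the line cannot be told apart from an effect of Ctsl. With bulk RNA, fewer cells of a type and less RNA per cell cannot be told apart either.

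Nodal is a secreted ligand of the TGF-β family that patterns the early embryo and specifies mesendoderm and the left side of the body. It binds the activin receptors Acvr1b (type I) and Acvr2b (type II) with the help of the membrane-bound coreceptor Tdgf1, also called Cripto, and the related ligand Gdf3 uses the same receptors. The receptors phosphorylate Smad2 and Smad3, which enter the nucleus with Smad4 and act with the forkhead factor Foxh1. Nodal, Lefty1 and Lefty2 are themselves targets of this complex, and the Lefty proteins are secreted inhibitors of Nodal, which closes a negative feedback loop. Smad7 is an inhibitory Smad that blocks the receptors inside the cell.

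The libraries held 11171111 to 27155553 counts. Ctsl was lower in both shCTSL libraries than in both shSC libraries on each day, at 37.5 to 39.2, 155 to 211 and 253 to 257 CPM on Days 0, 2 and 4 in shCTSL and at 137 to 147, 369 to 391 and 423 to 484 CPM in shSC. The log2 difference of Ctsl passed the test at Day 2 (-1.06, edgeR adjusted p = 0.0342) and not at Day 4 (-0.83, edgeR adjusted p = 0.0896). It was negative in all alternatives run (-1.28 to -0.86 at Day 2 and -0.95 to -0.73 at Day 4), but passed in 9 of 23 of them at Day 2 and in 8 of 24 at Day 4. CPM is the usual per-library scaling of counts, here by TMM-adjusted library totals (TMM, the trimmed mean of M values, evens out differences in library composition). The SD over genes of the log2 ratio between the replicates was 0.178 to 0.269 in 5 groups and 0.604 in shCTSL Day 2. The first of those 2 libraries also had the largest share of 45S ribosomal RNA counts (3.43%, against 0.17 to 1.43% elsewhere), so results that turn on shCTSL Day 2 are also given without one or the other of its libraries. The summed level of 7 mESC markers, among them Pou5f1 and Nanog, was 5710 to 5780 CPM in shSC and 5410 CPM in both shCTSL libraries at Day 0, 955 to 1370 CPM at Day 2 and 340 to 411 CPM at Day 4 over both lines. Summed levels of 7 visceral endoderm markers were 6.94 to 7.9 CPM at Day 0 and 337 to 437 CPM at Day 4. Those of 5 mesendoderm markers were 5.14 to 6.94 CPM at Day 0. They were 53.1 to 60.6 CPM at Day 2 and 32 to 41.5 CPM at Day 4. In shSC the mesendoderm sum at Day 2 was mostly Foxa2 (34.1 CPM, from 0.238 at Day 0) and Eomes (18.9 CPM, from 3.8). Gsc went from 0.124 to 0.583 CPM, while T (0.851 to 0.446 CPM) and Mixl1 (1.03 to 0.325 CPM) were lower at Day 2. Of 5 neural progenitor markers the sum was 27.9 to 33.7 CPM at Day 0 and 60.8 to 112 CPM later, and of 6 fibroblast markers 14.9 to 18.8 CPM at Day 0 and 71.6 to 149 CPM later. The part of these marker changes in the results below was not tested.

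The genes of the pathway changed at different times, and no one course covered them all. Tdgf1 fell to a small remainder between Day 0 and Day 2, Gdf3 fell at each step, Nodal and Foxh1 kept their level to Day 2 and were lower at Day 4, and Lefty1 was highest at Day 2. In shSC, 5 of the 9 genes changed by at least 1.5-fold at an edgeR adjusted p under 0.05 between Day 0 and Day 2 (2 higher, 3 lower), where 54.6% of all genes tested did (29.3% higher, 25.3% lower). Between Day 0 and Day 4, 8 of 9 changed in shSC (1 higher, 7 lower, against 60.7% of all genes, 32.1% higher and 28.7% lower). Between Day 2 and Day 4, 6 of 9 fell in shSC and 0 rose, against 12.4% of all genes lower and 11.4% higher. In shCTSL the counts were 5 of 9 (3 higher, 2 lower) from Day 0 to Day 2, where 55.5% of all genes changed (30.9% higher, 24.6% lower). They were 6 of 9 (1 higher, 5 lower) from Day 0 to Day 4, where 59.9% changed (32.3% higher, 27.6% lower), and 5 of 9 (0 higher, 5 lower) from Day 2 to Day 4, where 23.4% changed (11% higher, 12.4% lower). The counts from Day 0 include Lefty2 where it passed (higher at Day 2 in shCTSL, lower at Day 4 in both lines), although its Day 0 level led to its choice. The median log2 change of the 9 genes from Day 0 to Day 4 was -1.49 in shSC and -1.47 in shCTSL, beside 0.03 and 0.06 over all genes tested.

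**Figure D1:**
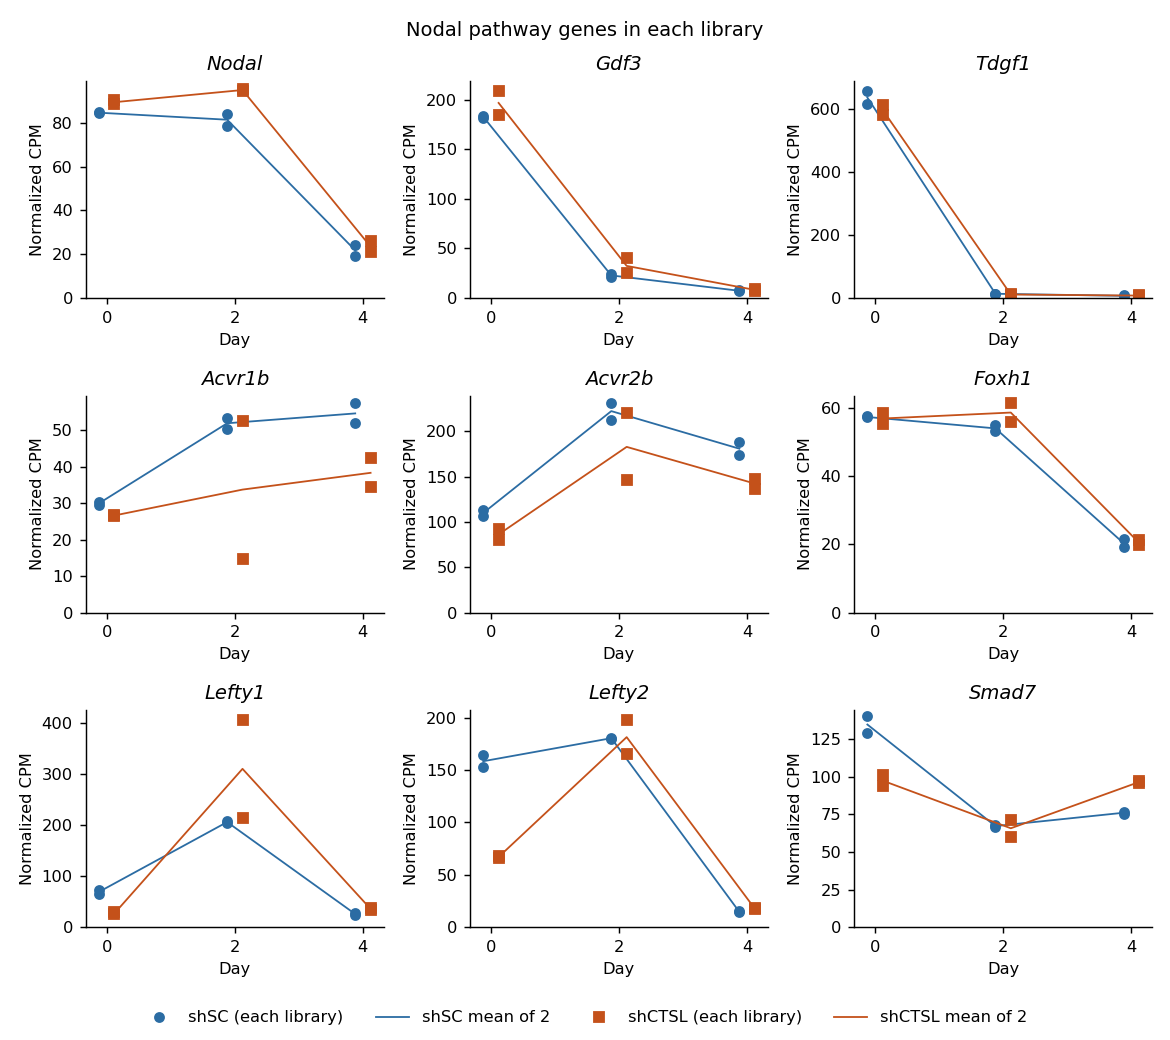
Normalized CPM (vertical axis, linear from 0) of the 9 genes on Days 0, 2 and 4 (horizontal axis), with each library as a point (circles shSC, squares shCTSL) and lines through the means of 2. Lefty1 and Lefty2 were lower in shCTSL at Day 0 (27 and 67 CPM against 69.2 and 159 CPM), and the 2 shCTSL Day 2 libraries lay far apart for Acvr1b (14.8 and 52.7 CPM) and Lefty1 (405 and 214 CPM).

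Of the ligands, Nodal stayed at about the same level for 2 days and then fell. In shSC it was at 84.2 and 84.9 CPM at Day 0, 84.1 and 78.6 CPM at Day 2, and 24.3 and 19.2 CPM at Day 4. In shCTSL the libraries gave 90.3 and 88.4 CPM, 95.2 and 94.6 CPM, and 21.1 and 25.8 CPM. Both Day 4 groups lay far below every earlier library and overlapped each other. The log2 change from Day 2 to Day 4 was -1.90 ± 0.14 (standard error, SE; edgeR adjusted p = 1.02e-05) in shSC and -2.02 ± 0.14 (edgeR adjusted p = 8.26e-06) in shCTSL. From Day 0 to Day 2 it was -0.06 ± 0.13 in shSC and 0.09 ± 0.13 in shCTSL, neither past the test (edgeR adjusted p = 0.728 and 0.586). With library totals in place of TMM scaling, which moves the median of all genes between those days by 0.40 in shSC and 0.34 in shCTSL, the shSC value was 0.34, so the direction of so small a change depends on the scaling.

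Gdf3, the second ligand, fell at each step. Its libraries gave 184 and 182 CPM at Day 0, 24.3 and 21.3 CPM at Day 2 and 7.65 and 6.87 CPM at Day 4 in shSC. In shCTSL they gave 209 and 185 CPM, 39.9 and 24.9 CPM, and 7.2 and 9.2 CPM. No library of one day reached the range of another day. The fall from Day 0 to Day 4 was 25.2-fold in shSC (log2 change -4.65 ± 0.23, edgeR adjusted p = 8.54e-08) and 24-fold in shCTSL (-4.58 ± 0.23, edgeR adjusted p = 9.93e-08). From Day 0 to Day 2 the shCTSL change was -2.61 ± 0.21 (edgeR adjusted p = 2.73e-06), or -2.94 without Day 2 replicate 1 and -2.30 without replicate 2.

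Tdgf1, the coreceptor, showed the largest change of the 9 genes in both lines. It was at 616 and 656 CPM in shSC at Day 0, 12.8 and 14 CPM at Day 2 and 8.35 and 5.34 CPM at Day 4. The shCTSL libraries gave 613 and 580 CPM, 13.8 and 8.3 CPM, and 7.14 and 8.07 CPM. Nearly all of the loss had thus occurred by Day 2, at 47.4-fold in shSC (log2 change -5.57 ± 0.26, edgeR adjusted p = 1.01e-07) and 54.3-fold in shCTSL (-5.76 ± 0.27, edgeR adjusted p = 9.54e-08; -6.12 and -5.42 without Day 2 replicate 1 or 2). A further fall from Day 2 to Day 4 passed in shSC (-0.95 ± 0.24, edgeR adjusted p = 0.014), with adjusted p of 0.0502, 0.0753 and 0.101 on leaving out shSC Day 2 replicate 1, shSC Day 2 replicate 2 or shSC Day 4 replicate 2. In shCTSL the same step was -0.53 ± 0.24 (edgeR adjusted p = 0.132), or -0.86 (adjusted p = 0.000484) without replicate 2 of Day 2 and -0.15 (adjusted p = 0.535) without replicate 1. The annotation also lists a processed copy, Tdgf1-ps2. Reads with a mapping quality under 10 were removed before counting, and how reads that match both bear on the Tdgf1 level was not tested.

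The starts of Nodal and Tdgf1 are shown because the ligand and its coreceptor followed such different courses. RefSeq promoter sequences were at hand for 4 of the 9 genes (Nodal, Tdgf1, Acvr1b and Acvr2b). Printed 5′ to 3′ are the 250 bases before each start in GRCm38.p6, on the plus strand of chr10:61417722-61417971 for Nodal and on the minus strand of chr9:110946159-110946408 for Tdgf1, with matches to GGGCGTGG, the GC-rich core bound by Klf factors, in capitals.
Nodal: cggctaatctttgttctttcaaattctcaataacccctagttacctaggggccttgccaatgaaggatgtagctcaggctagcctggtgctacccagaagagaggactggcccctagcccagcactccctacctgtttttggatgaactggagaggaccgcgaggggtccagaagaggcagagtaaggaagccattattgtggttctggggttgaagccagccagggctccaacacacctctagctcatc
Tdgf1: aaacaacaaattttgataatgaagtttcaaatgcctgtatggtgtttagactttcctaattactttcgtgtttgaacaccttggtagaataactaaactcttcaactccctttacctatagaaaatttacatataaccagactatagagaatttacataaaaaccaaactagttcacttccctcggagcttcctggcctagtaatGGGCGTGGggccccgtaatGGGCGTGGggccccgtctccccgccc
The Klf core occurred 2 times before Tdgf1, in a repeated stretch close to its start, and on neither strand before Nodal, Acvr1b or Acvr2b. Of 32851 promoter windows of this length 4.79% held it on either strand. The Foxh1 words TGTGGATT (0.718% of windows) and TGTGTATT (0.895%) and the Smad words GTCTAGAC (0.167%) and CAGACA (17.1%) were in none of the 4 windows on either strand. These are matches of letters within the 250 bases only, and nothing was measured on the binding of any factor here. Whether the letters have a part in the courses of the genes was not tested.

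Of the receptors, one rose by the test. Acvr2b, the type II receptor, was at 113 and 107 CPM in shSC at Day 0, 213 and 232 CPM at Day 2 and 188 and 174 CPM at Day 4. In shCTSL it was at 80.2 and 92.5 CPM, 146 and 220 CPM, and 148 and 137 CPM. Every library of Day 2 and Day 4 was above every Day 0 library. The rise from Day 0 to Day 2 was 2.02-fold in shSC (log2 change 1.02 ± 0.17, edgeR adjusted p = 0.000466) and 2.12-fold in shCTSL (1.09 ± 0.17, edgeR adjusted p = 0.000312; 1.40 and 0.77 without Day 2 replicate 1 or 2), and at Day 4 the level was 1.65-fold that of Day 0 in both (edgeR adjusted p = 0.0034 and 0.00376).

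Acvr1b, the type I receptor, was at 29.6 and 30.4 CPM in shSC at Day 0, 53.4 and 50.5 CPM at Day 2 and 57.4 and 51.9 CPM at Day 4. In shCTSL the libraries gave 26.9 and 26.4 CPM, 14.8 and 52.7 CPM, and 42.3 and 34.4 CPM. The 2 shCTSL Day 2 libraries lay on either side of all shCTSL values, and in the joint fit no change of Acvr1b passed the test (shSC Day 4 against Day 0: log2 change 0.87 ± 0.41, edgeR adjusted p = 0.0858). Without both shCTSL Day 2 libraries the same shSC change was 0.89 ± 0.10 (edgeR adjusted p = 3.74e-07). The change from Day 0 to Day 2 in shCTSL was 1.03 without replicate 1 and -0.84 without replicate 2, so its direction rests on 1 library.

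Foxh1, the nuclear partner of the Smads, followed Nodal closely. Its libraries gave 57.6 and 57.3 CPM at Day 0, 55 and 53.2 CPM at Day 2 and 21.6 and 19.2 CPM at Day 4 in shSC. In shCTSL they gave 58.5 and 55.5 CPM, 55.9 and 61.6 CPM, and 19.8 and 21.3 CPM. The Day 0 and Day 2 libraries of both lines thus lay between 53.2 and 61.6 CPM, and all Day 4 libraries were lower. From Day 2 to Day 4 Foxh1 fell by 1.40 ± 0.11 on the log2 scale in shSC (edgeR adjusted p = 1.59e-05) and by 1.51 ± 0.11 in shCTSL (edgeR adjusted p = 1.18e-05). From Day 0 to Day 2 the shSC change was -0.09 ± 0.11 (edgeR adjusted p = 0.504), or 0.31 with library totals. Over the 12 libraries, which share lines and days, the log2 levels of Foxh1 and Nodal had a Pearson r of 0.997, the highest of all pairs among the 9 genes.

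Lefty1, a secreted Nodal inhibitor, rose to Day 2 and fell to Day 4 in both lines. It was at 65.4 and 72.9 CPM in shSC at Day 0, 203 and 208 CPM at Day 2 and 24.1 and 27.3 CPM at Day 4. In shCTSL it was at 28.8 and 25.3 CPM, 405 and 214 CPM, and 33.6 and 37.9 CPM. The shCTSL line started below shSC and at Day 2 and Day 4 both of its libraries were above both shSC libraries. The rise from Day 0 to Day 2 was 2.97-fold in shSC (log2 change 1.57 ± 0.24, edgeR adjusted p = 0.000255) and 11.4-fold in shCTSL (3.51 ± 0.26, edgeR adjusted p = 1.76e-06; 3.02 and 3.90 without Day 2 replicate 1 or 2). From Day 2 to Day 4 Lefty1 fell 8.01-fold in shSC (edgeR adjusted p = 2.54e-05) and 8.65-fold in shCTSL (log2 change -3.11 ± 0.25, edgeR adjusted p = 2.31e-05). Day 4 ended below Day 0 in shSC (-1.43 ± 0.25, edgeR adjusted p = 0.000457), and in shCTSL the Day 4 value relative to Day 0 was 0.40 ± 0.25 (edgeR adjusted p = 0.173).

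Lefty2, the neighbouring Nodal inhibitor, was at 153 and 164 CPM in shSC at Day 0, 180 and 181 CPM at Day 2 and 15.1 and 14.1 CPM at Day 4. In shCTSL it was at 67.7 and 66.4 CPM, 198 and 165 CPM, and 17.5 and 18.1 CPM. The shSC libraries were thus nearly level from Day 0 to Day 2 (log2 change 0.18 ± 0.11), while those of shCTSL were 2.71-fold higher at Day 2 than at Day 0 (1.44 ± 0.11; 1.34 and 1.57 without Day 2 replicate 1 or 2) and reached the same level. These changes start from the Day 0 libraries that the choice of Lefty2 rested on, so they are given as a description, with no test. From Day 2 to Day 4, which does not use those libraries, Lefty2 fell 12.3-fold in shSC (-3.62 ± 0.12, edgeR adjusted p = 2.13e-07) and 10.2-fold in shCTSL (-3.35 ± 0.12, edgeR adjusted p = 3.72e-07).

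Smad7, the intracellular inhibitor, was at 129 and 140 CPM in shSC at Day 0, 67.5 and 66.7 CPM at Day 2 and 76.5 and 75.4 CPM at Day 4. In shCTSL it was at 101 and 93.5 CPM, 60.1 and 71.2 CPM, and 96.7 and 95.9 CPM. The line with the higher Smad7 at Day 0 thus had the lower level at Day 4. In shSC the fall from Day 0 was 2-fold at Day 2 (edgeR adjusted p = 2.54e-05) and 1.77-fold at Day 4 (log2 change -0.82 ± 0.11, edgeR adjusted p = 7.8e-05; -0.50 with library totals). In shCTSL the change to Day 2 was -0.57 ± 0.11 (edgeR adjusted p = 0.0012), just under 1.5-fold, and it passed the fold limit without Day 2 replicate 2 (-0.70) and not without replicate 1 (-0.41). Day 4 was level with Day 0 (-0.02 ± 0.11, edgeR adjusted p = 0.908; 0.36 with library totals).

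**Figure D2:**
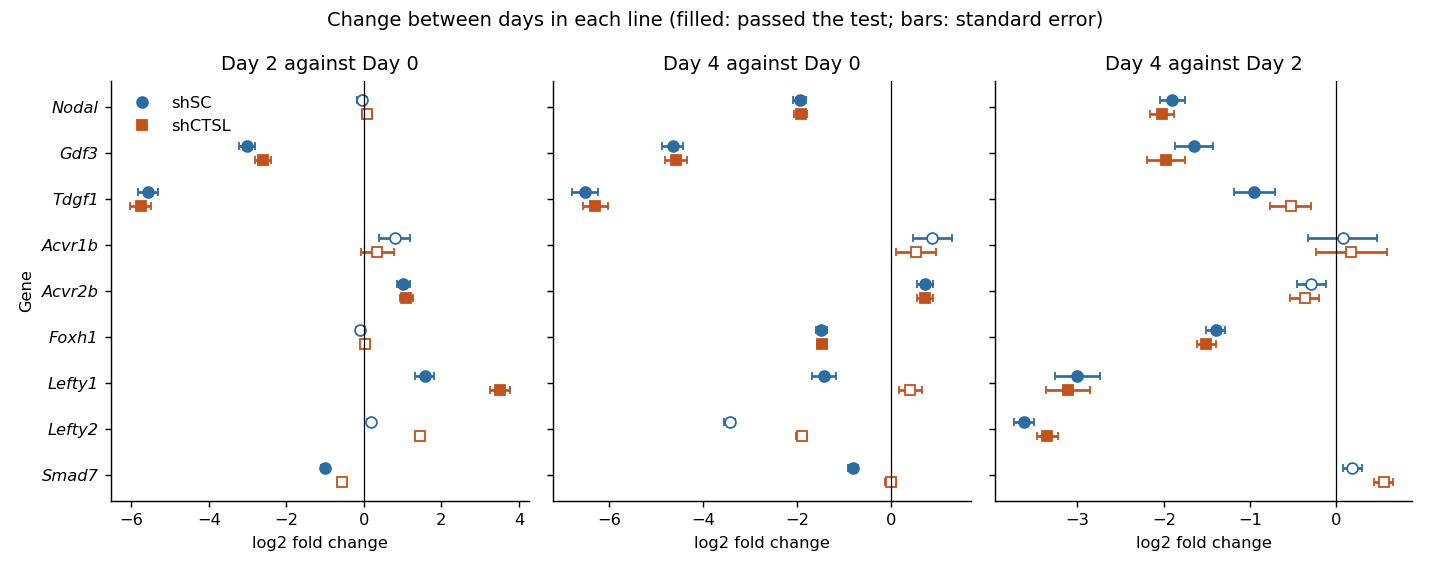
Log2 fold change (horizontal axis) of each gene between days in shSC (circles) and shCTSL (squares), with bars for the SE and filled points for changes that passed the test (Lefty2 from Day 0 is open, with no test). From Day 2 to Day 4 the change of Lefty2 was the largest (-3.62 in shSC and -3.35 in shCTSL), and from Day 0 to Day 4 that of Tdgf1 was (-6.51 and -6.29).

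Per kilobase of exon, the order of levels turned over during differentiation. This order is given for the 6 genes whose span in the annotation differed by under 1 kb from that of RefSeq, which leaves out Acvr1b, Acvr2b and Foxh1. In shSC at Day 0 Tdgf1 was highest at 330 CPM per kb, then Gdf3 at 86.3, Lefty2 at 60.7, Nodal at 40.4, Lefty1 at 39.3 and Smad7 at 29.7 CPM per kb, and of these neighbours only Nodal and Lefty1 overlapped. At Day 2 the Lefty genes led, with Lefty1 at 117 and Lefty2 at 69 CPM per kb. Then came Nodal at 38.8, Smad7 at 14.8, Gdf3 at 10.7 and Tdgf1 last at 6.97 CPM per kb. At Day 4 Smad7 was first at 16.8 CPM per kb, followed by Lefty1 at 14.6, Nodal at 10.4, Lefty2 at 5.6, Tdgf1 at 3.56 and Gdf3 at 3.41 CPM per kb, the last 2 overlapping. In shCTSL at Day 0 Tdgf1 (310 CPM per kb) and Gdf3 (92.7) led too, but Nodal (42.6) stood above Lefty2 (25.7), Smad7 (21.5) and Lefty1 (15.4). At Day 2 Lefty1 (176), Lefty2 (69.5) and Nodal (45.3) led there, followed by Gdf3 (15.3) and Smad7 (14.5), which overlapped, and Tdgf1 (5.75 CPM per kb). At Day 4 the shCTSL order was that of shSC, from Smad7 (21.3) and Lefty1 (20.3), which overlapped, to Gdf3 (3.86 CPM per kb).

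The difference between the lines at Day 0, which took part in the choice of genes, was largest for both Lefty genes. The level in shCTSL was 0.391 of that in shSC for Lefty1 (log2 difference -1.35 ± 0.25) and 0.423 for Lefty2 (-1.24 ± 0.11), then 0.724 for Smad7 and 0.786 for Acvr2b. It was 0.888 for Acvr1b, 0.937 for Tdgf1, 0.993 for Foxh1, 1.06 for Nodal and 1.07 for Gdf3. For 6 of the 9 genes (Tdgf1, Acvr1b, Acvr2b, Lefty1, Lefty2 and Smad7) both shCTSL libraries were lower than both shSC libraries, as for 28.6% of all genes tested, and for 2 (Nodal and Gdf3) both were higher, as for 22.7%. Nodal, Gdf3 and Foxh1 were thus near the shSC level in the shCTSL Day 0 libraries, where Lefty1 and Lefty2 were at 0.391 and 0.423 of it.

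At Day 2 none of the 9 genes differed between the lines by the edgeR test. Of all 15532 genes, 10 (0.0644%) did, with 0.00644% higher and 0.0579% lower in shCTSL. Of the 9, 2 had an unadjusted edgeR p under 0.05, beside 19.4% of all genes. The log2 difference, shCTSL minus shSC, was 0.59 ± 0.23 for Lefty1 (edgeR adjusted p = 0.232), 0.50 ± 0.20 for Gdf3 (0.235) and 0.01 ± 0.11 for Lefty2 (0.963). Of the others the values ran from -0.61 ± 0.41 for Acvr1b to 0.22 ± 0.13 for Nodal. Both shCTSL libraries were above both shSC libraries for Nodal, Gdf3, Foxh1 and Lefty1 (22.7% of all genes) and below for none (22.7%). These values rest on the 2 shCTSL Day 2 libraries that stood apart. Without replicate 2, 4 of the 9 differed (Lefty1 0.97, Gdf3 0.80, Acvr2b -0.60 and Acvr1b -1.81), beside 5012 genes in all, and without replicate 1 none did, beside 96 genes, with Lefty1 at 0.07 and Acvr1b at 0.03. In both of these fits the lone library is taken to vary as the other groups do.

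At Day 4 none of the 9 genes passed either, where 2 of 15532 genes (0.0129%) did. Of the 9, 2 (Lefty2 and Smad7) had an unadjusted edgeR p under 0.05, beside 12.2% of all genes. The inhibitors were on the same side, with log2 differences of 0.48 ± 0.24 for Lefty1 (edgeR adjusted p = 0.446), 0.28 ± 0.12 for Lefty2 (0.391) and 0.34 ± 0.11 for Smad7 (0.309). The receptors were on the other side, at -0.35 ± 0.17 for Acvr2b (edgeR adjusted p = 0.432) and -0.51 ± 0.41 for Acvr1b (0.558). For these 5 genes the libraries of the lines did not overlap (3 higher and 2 lower in shCTSL). Of all genes 30% were higher and 31.5% lower in this way, so these counts do not set the 9 genes apart. Nodal, Gdf3, Tdgf1 and Foxh1 differed by 0.10, 0.17, 0.13 and 0.01, and their libraries overlapped. The joint fit takes its spread from the shCTSL Day 2 libraries too. A fit with both left out was chosen after seeing the data. Its edgeR adjusted p was 0.00293 for Lefty1, 0.0282 for Lefty2, 0.00338 for Smad7, 0.0059 for Acvr2b and 0.00212 for Acvr1b. The log2 differences were 0.49, 0.29, 0.35, -0.34 and -0.51 in that order. Each was under 1.5-fold, so none of the 9 passed both limits, while 909 of 15421 genes did. How many of all genes had an adjusted p under 0.05 alone in that fit was not counted. These p-values thus do not set the 9 genes apart.

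**Figure D3:**
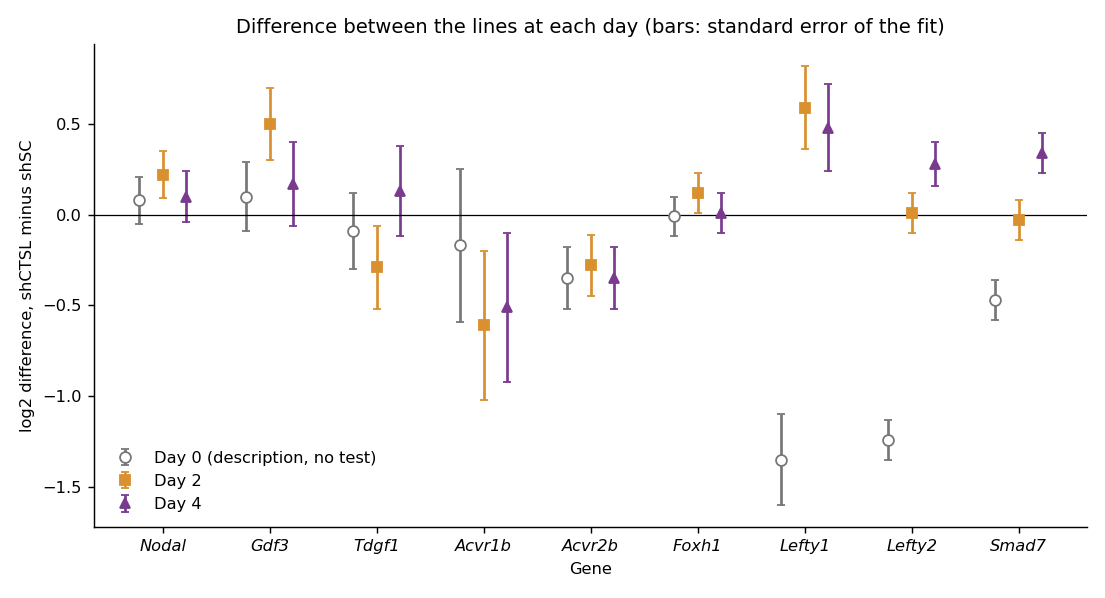
Log2 difference in level, shCTSL minus shSC (vertical axis), of each gene at Day 0 (open circles, no test), Day 2 (squares) and Day 4 (triangles), with bars for the SE of the joint fit. Lefty1, Lefty2 and Smad7 went from -1.35, -1.24 and -0.47 at Day 0 to 0.48, 0.28 and 0.34 at Day 4, while Acvr2b stayed at -0.35 on both days.

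Whether the lines differed in their change from Day 2 to Day 4 was tested directly, without the Day 0 libraries. None of the 9 genes, and 0 of all genes (0%), passed by edgeR, with 753 genes at an unadjusted p under 0.05, and DESeq2 called 11 genes, none of them among the 9. The largest of the 9 were Tdgf1 (0.42 ± 0.34), Smad7 (0.37 ± 0.15, unadjusted p = 0.0367), Gdf3 (-0.33 ± 0.30) and Lefty2 (0.27 ± 0.16), all at an edgeR adjusted p of 1. Without shCTSL Day 2 replicate 1 the value was 0.80 for Tdgf1, and without replicate 2 it was -0.63 for Gdf3 and 1.29 for Acvr1b. Each of these rests on a lone shCTSL Day 2 library.

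Lefty2 and Lefty1 lie close to each other on mouse chromosome 1. In mm9 the annotation places Lefty2 at chr1:182823239-182829234 and Lefty1 at chr1:182865153-182868531, both on the plus strand, with 35918 bases between them. Any gene lying wholly between Lefty2 and Lefty1 was left out of this comparison. Of the genes that flank the pair, 9 within 250 kb on either side were tested. At Day 0 their differences between the lines ran from -0.59 to 0.16 on the log2 scale, against -1.24 and -1.35 for the Lefty genes. The lowest was Tmem63a (-0.59 ± 0.15; 8.83 CPM in shCTSL and 13.2 CPM in shSC), which lies just beyond Lefty1. Ephx1, farther out on the side of Lefty1 (-0.25 ± 0.17), and H3f3a on the other side (-0.18 ± 0.30) came next. At Day 4 Tmem63a was at 0.25 ± 0.13 (edgeR adjusted p = 0.457), on the same side of 0 as Lefty1 and Lefty2. H3f3a was at 0.14 ± 0.29 (edgeR adjusted p = 0.822), and Ephx1 was on the other side at -0.42 ± 0.18 (edgeR adjusted p = 0.395). The coding sequences of Lefty1 and Lefty2 are 91.9% identical (1017 of 1107 bases), and 11.2% of the 75-base stretches of Lefty1 and 7.21% of those of Lefty2 (75 bases being the stated read length) occur in the other. Reads from such stretches cannot be given to one gene, and reads with a mapping quality under 10 were removed before counting. How such reads bear on the counts of the pair was not tested. Their levels parted at Day 2, when Lefty1 was 2.97-fold above its Day 0 level in shSC and Lefty2 1.14-fold.

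**Figure D4:**
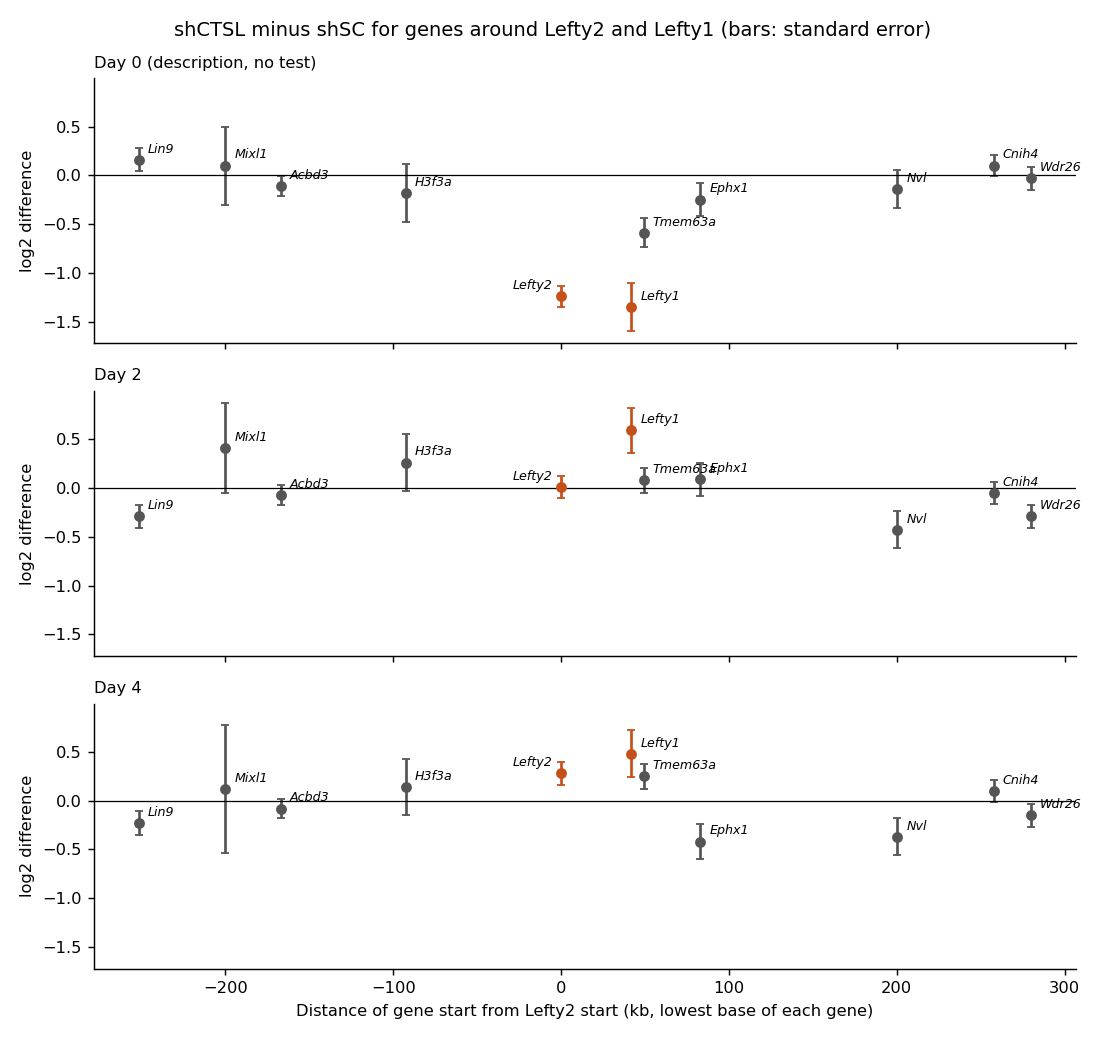
Log2 difference, shCTSL minus shSC (vertical axis), of the Lefty pair and 9 tested genes that flank it against distance in kb from the start of Lefty2 (horizontal axis), on Days 0, 2 and 4, with bars for the SE. At Day 0 the Lefty genes (orange) lay at -1.24 and -1.35, and Tmem63a, the gene just beyond Lefty1, at -0.59.

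The other members lie apart from each other. In mm9 Nodal is at chr10:60880720-60888086 (plus strand), Gdf3 at chr6:122555421-122560105 (minus), Tdgf1 at chr9:110842114-110848662 (minus), Acvr2b at chr9:119311562-119342619 (plus), Acvr1b at chr15:101004556-101043032 (plus) and Foxh1 at chr15:76498714-76500378 (minus). Smad7 is on chromosome 18. No exon of the 9 genes overlapped an exon of another gene in the annotation.

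The genes whose course over the 12 libraries was most like that of Nodal, Lefty1 or Lefty2 were found among 13211 genes by Pearson r of log2 levels, as a description. For Nodal they were Glud1 (r = 0.992), encoding glutamate dehydrogenase, Dusp6 (0.988), a phosphatase of ERK kinases, and Myh6 (0.985), a cardiac myosin heavy chain. Dusp6 stood at 142 CPM at Day 0, 163 CPM at Day 2 and 45.4 CPM at Day 4 in shSC, which is the plateau and late fall of Nodal. For Lefty2 they were Tcf7 (0.987), a transcription factor of the Wnt pathway, Myh14 (0.981) and Acss1 (0.975), a mitochondrial acetyl-CoA synthetase. Tcf7 was lower in shCTSL at Day 0 (34.5 ± 2.21 CPM against 45.2 ± 1.47 CPM in shSC; SD, n = 2) and level between the lines at Day 2 (47 and 47.6 CPM). For Lefty1 they were Myh7b (0.982), Tyro3 (0.978), a receptor tyrosine kinase, and Prss50 (0.977). The level of Prss50 went from 2.05 to 7.11 to 0.981 CPM in shSC. Among the members themselves r was 0.94 for Nodal and Lefty2, 0.79 for Lefty1 and Lefty2, and 0.95 for Gdf3 and Tdgf1. All these libraries share lines and days, which by themselves align courses. The genes named here were picked for their likeness over all 12 libraries. Levels that match, such as those of Tcf7 at Day 0, thus follow in part from that choice.

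Around these 9 genes, 49 other genes of the TGF-β and activin branch were listed by role, of which 44 were tested. In shSC 24 of them rose and 8 fell from Day 0 to Day 4, with a median log2 change of 0.95 beside 0.03 over all genes, and in shCTSL 24 rose and 10 fell (median 0.74 beside 0.06). Of all genes tested 32.1% rose and 28.7% fell in shSC, and 32.3% and 27.6% in shCTSL, and the counts of each list below stand beside these shares. None differed between the lines at Day 2 or Day 4 by edgeR, although 7 (15.9%) and 9 (20.5%) had an unadjusted p under 0.05, beside 19.4% and 12.2% of all genes, and none in the direct test of Day 4 against Day 2.

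Of the other ligands 4 of 6 tested rose and 2 fell in shSC by Day 4 (32.1% and 28.7% of all genes). Inhbb, the activin B subunit, fell from 189 and 201 CPM to 0.347 and 0.398 CPM (log2 change -8.99 ± 0.22, edgeR adjusted p = 1.82e-09). Tgfb2 rose from 0.744 and 1.07 CPM to 52.1 and 60.4 CPM (5.97 ± 0.19), and Tgfb3 rose by 6.13 ± 0.27 on the log2 scale, both genes encoding TGF-β ligands. Gdf1 was listed at 0 in all libraries, and all 1401 of its exonic bases overlap Lass1 or Upf1 in the annotation.

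All 5 of the other receptors and coreceptors that could be tested rose in both lines by Day 4, with a median log2 change of 2.19 in shSC and 2.03 in shCTSL. Tgfbr3, or betaglycan, changed by 5.18 ± 0.33 in shSC, and Acvr1, a type I receptor, by 2.19 ± 0.17. Tgfbr2, the type II TGF-β receptor, was at 0.991 and 1.14 CPM at Day 0 and at 16.7 and 17.5 CPM at Day 4 in shSC. In shCTSL it was at 1.79 and 2.16 CPM and at 19.2 and 19.8 CPM.

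Among 6 secreted antagonists and convertases 3 rose and 1 fell in shSC, near the 60.7% of all genes that changed. Pcsk6, a convertase that processes Nodal, fell from 134 and 137 CPM to 10.8 and 12.2 CPM (-3.56 ± 0.15, edgeR adjusted p = 2.75e-08), while Inha, the inhibin α subunit (2.69 ± 0.29), and Fst, the activin antagonist follistatin (2.40 ± 0.22), rose. Of 16 Smads, partners and regulators 5 rose and 3 fell in shSC, a share below that 60.7%, among them Smad6, the second inhibitory Smad (3.03 ± 0.13), Smad3 (2.61 ± 0.22) and the corepressor Tgif1 (-1.11 ± 0.09). Smad6 at Day 4 was at 72.7 and 83 CPM in shSC and at 115 and 119 CPM in shCTSL, a log2 difference of 0.59 ± 0.11 (edgeR adjusted p = 0.148 in the joint fit, and 0.000263 with both shCTSL Day 2 libraries left out).

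Of 11 tested targets of the pathway in the early embryo 7 rose and 2 fell in shSC by Day 4, and 7 rose and 3 fell in shCTSL (medians 2.13 and 2.74), beside 32.1% and 28.7% of all genes in shSC and 32.3% and 27.6% in shCTSL. Sox17, an endoderm factor, rose from 0.124 and 0.152 CPM (4 counts in all) to 14.8 and 19.4 CPM in shSC (6.90 ± 0.48). Foxa2, a factor of endoderm and axial mesoderm, went from 0.229 and 0.248 CPM (7 counts in all) to 25.7 and 26.7 CPM, and Otx2, of the epiblast and forebrain, from 10.6 and 10.8 CPM to 0.0693 and 0.177 CPM (5 counts). Lhx1 had 0 counts in shCTSL at Day 0, and its Day 4 level there was at least 33.7-fold higher than the 3 counts over the group that a count of 0 allows, a floor that covers counting error only. With Lhx1 at that bound the shCTSL median was 2.74 as well.

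**Figure D5:**
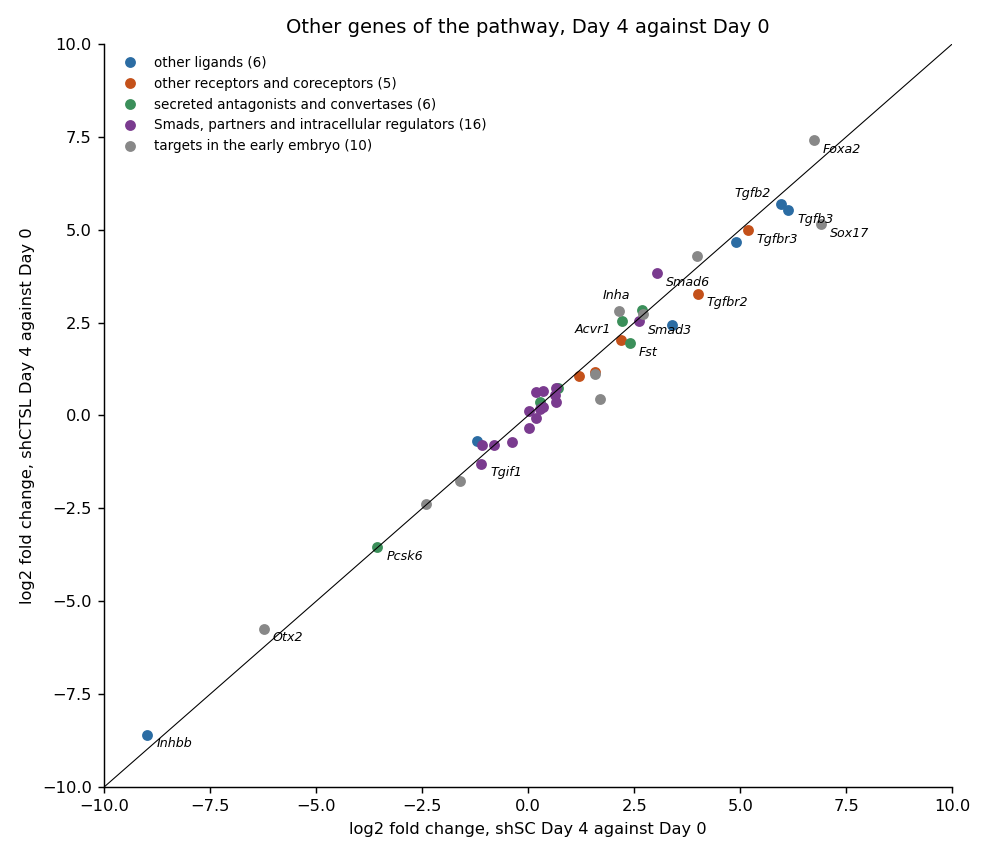
Log2 fold change from Day 0 to Day 4 in shSC (horizontal axis) and shCTSL (vertical axis) of the other pathway genes, coloured by role, with the line of equal change and without Lhx1. Inhbb (-8.99 and -8.60) lay at the lower left, Tgfb3 (6.13 and 5.52) at the upper right a little below the line, Smad6 (3.03 and 3.83) above it and Sox17 (6.90 and 5.15) farther below it. At Day 0 Sox17 had 4 counts in shSC and 7 in shCTSL, so its distance from the line rests on few counts.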

How the data were processed

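RNA-seq of 12 libraries (6 groups of 2) was analysed from the read count table. The authors deposited raw read counts per RefSeq gene. Per the labels and the study's methods, poly(A) RNA was made into directional libraries, reads were checked with FastQC (0.11.2), aligned to mm9 with STAR (2.3.0e), filtered with SAMtools (0.1.19; mapping quality under 10 and non-chromosomal or mitochondrial reads removed) and counted with featureCounts (1.6.2). For the counting, the sources used here name no strand setting.

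Counts were filtered with filterByExpr (minimum count 10) and scaled with TMM, and all 12 libraries were fitted together by group with edgeR's quasi-likelihood test (edgeR 4.0.16, limma 3.58.1, R 4.3.3), leaving 6 residual degrees of freedom. P-values were adjusted by Benjamini-Hochberg over the 15532 genes tested, and a gene was called at an adjusted p under 0.05 and at least 1.5-fold. All tests are two-sided. The SE was taken as the log2 change over the root of the F statistic. CPM are counts over TMM-scaled library totals. The labels call the replicates biological without naming separate cultures, so p-values measure the spread between these libraries. Replicate pairs differed by more than counting noise (chi-square per degree of freedom 2.73 or more). Exonic lengths, overlaps and coordinates came from GENCODE M1 on mm9. The scripts were tested on simulated data. DESeq2 1.42.0, limma-voom with quality weights, other filters, scalings and call limits, and leaving out each library were tried as alternatives.

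The 9 genes, the pathway lists and the marker lists were chosen with earlier results of these data known. Named pathway genes were the 3 with the largest change in each list among those called in shSC Day 4 against Day 0, and any called between the lines. Figures were drawn with matplotlib. No column was left unmapped.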

Additional observations from a re-analysis of the deposited data

Results flagged for a closer look

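For 3 of the 9 genes the shCTSL libraries were both lower than either shSC library at Day 0 and both higher at a later day. The log2 difference between the lines moved by 1.94 for Lefty1 from Day 0 to Day 2 and by 1.83 from Day 0 to Day 4. It moved by 1.52 for Lefty2 and by 0.81 for Smad7 from Day 0 to Day 4. Among the 9, these 3 are the inhibitors of the pathway. These shifts were not tested, because the Day 0 difference took part in choosing the genes, and the later differences alone did not pass the joint test. The Lefty1 value at Day 2 rests on 2 unlike libraries, at 405 and 214 CPM. Of all genes tested, 6.05% had both shCTSL libraries lower at Day 0 and both higher at Day 2, and 5.26% lower at Day 0 and higher at Day 4 (8.79% one or the other). Outside the 9, the ligand Tgfb1 changed sides too. It was at 13.2 to 14.2 CPM in shCTSL and 16.5 CPM in shSC at Day 0. At Day 4 it was at 8.12 to 8.99 CPM in shCTSL and 6.87 to 7.34 CPM in shSC. Smad6, an inhibitor, also did so (7.61 to 8.95 against 9.48 to 9.61 CPM, then 115 to 119 against 72.7 to 83 CPM). The antagonist Fst was higher in shCTSL at Day 0 (9.06 to 10.9 against 5.58 to 6.48 CPM).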

How the results depend on the processing

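The directions of the day changes of 1 or more on the log2 scale were kept under all alternatives run, and 0 members were called between the lines at Day 4 under each of them. Small values changed sign. Nodal from Day 0 to Day 2 in shSC was 0.34 with library totals (an alternative chosen after seeing the data) and 0.01 with only the libraries compared, and in shCTSL -0.05 with offsets for exonic length. Foxh1 over those days was 0.31 with library totals and 0.05 with length offsets in shSC, and -0.03 with length offsets in shCTSL. Smad7 from Day 0 to Day 4 in shCTSL was 0.01 with RLE scaling and with DESeq2, 0.36 with library totals and 0.02 with only the libraries compared. Between the lines at Day 2, Lefty2 was -0.02 with RLE, library totals and DESeq2, -0.01 with no filter and -0.11 with length offsets, which also gave -0.10 for Foxh1 and 0.01 for Smad7. At Day 4 Foxh1 was -0.02 with no filter, and length offsets gave -0.02 for Nodal, -0.01 for Tdgf1 and -0.18 for Foxh1. Acvr2b in the Day 4 against Day 2 difference was 0.02 with library totals. The cause of these changes was not tested.

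A log2 limit of 1.5 in place of 1.5-fold called 3 members in shSC and 3 in shCTSL from Day 0 to Day 2 and 4 in shSC from Day 0 to Day 4, because it asks for a larger change. It called 10 and 8 pathway genes (18 and 18 otherwise) from Day 2 to Day 4 in shSC and shCTSL, and 18 (29 otherwise) from Day 0 to Day 2 in shCTSL. Over all genes that limit called 3844, 4778 and 1462 in shSC and 3981, 4697 and 1312 in shCTSL for Day 2 against Day 0, Day 4 against Day 0 and Day 4 against Day 2. In the last shCTSL step limma-voom called 10 pathway genes and 1255 in all, and the fit of only the libraries compared 10 and 1201, against 18 and 3630. Acvr1b in shSC from Day 0 to Day 2 passed with library totals, limma-voom, no filter and only the libraries compared, at log2 changes of 1.19, 0.79, 0.82 and 0.86.

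Between the lines at Day 2, 1 pathway gene, Dact2, was called by DESeq2, with no filter and with length offsets, and over all genes DESeq2 called 125, no filter 60, length offsets 40, limma-voom and only the libraries compared 0, and the larger limit 2 (10 otherwise). At Day 4 DESeq2 called 1 pathway gene (Smad6), limma-voom 2 and only the libraries compared 2 (Smad6 and Sox17), and 4 (with Inha and Lhx1) were called with both shCTSL Day 2 libraries left out, also chosen after seeing the data. Over all genes these gave 132, 723, 711 and 909, no filter 119 and length offsets 24 (2 otherwise). DESeq2 called 11 genes in the Day 4 against Day 2 difference.

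Leaving out each library in turn gave, between the lines at Day 2, 0 to 4 members, 0 to 11 pathway genes and 0 to 5012 genes called, at Day 4 0 to 4 pathway genes and 0 to 926 genes, and in the Day 4 against Day 2 difference 0 to 2 members, 0 to 7 pathway genes and 0 to 2323 genes. The highest values came without a shCTSL Day 2 library. In shCTSL from Day 2 to Day 4 it gave 5 to 8 members, the 8 without Day 2 replicate 2, and 2346 (without Day 4 replicate 1) to 6213 genes, and in shSC at least 2390 (without Day 4 replicate 1). Values that crossed 0 were, in shCTSL, Acvr1b from Day 0 to Day 2 (-0.84 to 1.03) and Day 2 to Day 4 (-0.48 to 1.37), Foxh1 from Day 0 to Day 2 (-0.03 to 0.15) and Smad7 from Day 0 to Day 4 (-0.07 to 0.04). Between the lines at Day 2 they were Tdgf1 (-0.68 to 0.04), Acvr1b (-1.81 to 0.03), Lefty2 (-0.12 to 0.13) and Smad7 (-0.16 to 0.09), and at Day 4 Nodal (-0.06 to 0.28), Gdf3 (-0.02 to 0.33), Tdgf1 (-0.14 to 0.51) and Foxh1 (-0.07 to 0.10). In the Day 4 against Day 2 difference they were Nodal (-0.28 to 0.06), Gdf3 (-0.63 to 0.05), Acvr1b (-0.54 to 1.29), Acvr2b (-0.34 to 0.25) and Lefty1 (-0.49 to 0.42).

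The replicate numbers did not pair the libraries, since deviations of same-numbered libraries correlated at -0.465 to 0.257 over 15 pairs of groups and exceeded 0.1 in 2. With the replicate block 0 genes were called between the lines at Day 2 and 1 at Day 4, and the counts of members and of pathway genes called between the lines stayed at 0. Plain CPM moved 37 of 54 group levels of the members by more than 1 SD, by lowering Day 0 levels against later ones. Having 2 libraries a group limits what could be detected.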
